A study of Drosophila melanogaster with 2 samples.

Results

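Deep intronic peaks were defined by position alone. They were the peaks of the authors' conservative list whose summit lay more than 5 kb from the nearest protein-coding transcription start site (TSS), inside a protein-coding gene and in no exon of one. The rule found 264 of the 1799 conservative peaks on the main chromosome arms, a share of 14.7% (Wilson 95% interval 13.1 to 16.4, counting error only). These 264 peaks lay in 182 host genes, a host being any protein-coding gene whose span held the summit. The underlying ChIP-seq measured where CG10348, the product of a predicted C2H2 zinc-finger gene, was found on chromatin of whole Drosophila melanogaster pupae at 2 days of age. By the labels' account the animals carried a transgene for CG10348 joined to enhanced GFP, and an antibody against GFP was used for the precipitation from sonicated chromatin. A second field of the labels names CG10348 as the antibody, and which of them names the reagent was not settled here. The 2 biological replicates formed 1 group and shared 1 control, which was not analysed here. No untagged or mutant group was among these samples, and a peak from whole animals cannot be assigned to a cell type.

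Introns of fly genes range from very short to very long, and long introns are concentrated in genes for development and the nervous system. Such introns often hold enhancers, which are stretches of DNA that bind transcription factors and act on a promoter at a distance. A ChIP-seq summit marks the point of strongest enrichment, and a summit far from any TSS cannot be tied to a target gene by position. In the pupa, pulses of the steroid hormone ecdysone drive the rebuilding of larval tissues into the adult body.

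The 100 bp around 12 summits are shown as examples of the sequence under strong members and under genes with several peaks. They are limited to members on 2L, 3L, 3R and X: the 6 strongest there, and the strongest member of each further host there with 4 or more members. Psc and Hr3, on another arm, are left out for that reason. All are on the plus strand of the RefSeq genome of assembly release 6 (dm6), 5′ to 3′. Capitals mark the word TTAAAA, the AT-rich word AAATAT and also matches of CGATA, each on either strand, and overlapping matches run together.
CG32486 (chr3L:3060745-3060844): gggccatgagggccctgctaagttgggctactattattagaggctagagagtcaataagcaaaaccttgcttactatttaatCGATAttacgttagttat
Raf (chrX:2300664-2300763): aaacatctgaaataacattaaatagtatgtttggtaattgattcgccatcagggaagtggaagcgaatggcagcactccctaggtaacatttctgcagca
osa (chr3R:17704370-17704469): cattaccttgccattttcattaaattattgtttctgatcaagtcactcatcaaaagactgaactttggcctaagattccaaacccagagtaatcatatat
shep (chr3L:5243363-5243462): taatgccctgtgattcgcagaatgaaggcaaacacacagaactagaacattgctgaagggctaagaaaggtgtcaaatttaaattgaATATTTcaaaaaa
JIL-1 (chr3L:11084732-11084831): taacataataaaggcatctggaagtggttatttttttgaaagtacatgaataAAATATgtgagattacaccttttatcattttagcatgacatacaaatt
dpp (chr2L:2433592-2433691): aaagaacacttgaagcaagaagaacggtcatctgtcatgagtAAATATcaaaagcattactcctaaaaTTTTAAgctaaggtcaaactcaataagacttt
Snoo (chr2L:7925586-7925685): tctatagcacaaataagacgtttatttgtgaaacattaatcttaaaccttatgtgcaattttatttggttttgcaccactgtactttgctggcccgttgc
kirre (chrX:3047843-3047942): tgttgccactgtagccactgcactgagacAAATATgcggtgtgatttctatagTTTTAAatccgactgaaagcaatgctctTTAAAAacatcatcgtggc
Hr4 (chrX:1963903-1964002): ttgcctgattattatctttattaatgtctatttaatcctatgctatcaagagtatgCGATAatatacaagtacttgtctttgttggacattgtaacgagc
Eip74EF (chr3L:17567017-17567116): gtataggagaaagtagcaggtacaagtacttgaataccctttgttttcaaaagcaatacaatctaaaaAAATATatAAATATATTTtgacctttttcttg
SKIP (chr3R:22145923-22146022): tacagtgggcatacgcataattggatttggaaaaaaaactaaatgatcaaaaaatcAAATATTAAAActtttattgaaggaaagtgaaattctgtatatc
heca (chr3R:30296097-30296196): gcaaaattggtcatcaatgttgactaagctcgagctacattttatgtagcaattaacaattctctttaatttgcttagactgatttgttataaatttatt
Capitals appeared in 8 of the 12 windows. The windows of Raf, osa, Snoo and heca held none of the 3 words. The GC content of the 12 windows was between 26.0% (JIL-1 and SKIP) and 41.0% (kirre). It was below that of the windows centred 300 bp to each side in 11 of the 12, with kirre at 41.0% against 39.0% as the exception.

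Conservative peaks were sparser in deep intronic sequence than its length alone would give. Summits of conservative peaks fell there in 14.7% of cases. The irreproducible discovery rate (IDR) is low where a region ranks high, and at a similar place, in both lists of a pair. Of the 133555 ranked regions that did not pass the authors' IDR threshold, 21.3% had their summits in deep intronic sequence. Such sequence made up 22.6% of the main arms, or 30.2 Mb of 134 Mb. The density of peaks was 8.74 per Mb in deep intronic sequence, against 13.4 per Mb over the arms as a whole, a ratio of 0.651. The share was nearly the same in each replicate's own thresholded list, with 167 of 1268 peaks (13.2%) in replicate 1 and 135 of 1016 (13.3%) in replicate 2. With 1 group of 2 replicates, and regions that are not independent replicates, no p-value was computed for this or any other comparison here.

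The members were spread over 5 arms and absent from the smallest. There were 48 on 2L, 34 on 2R, 55 on 3L, 68 on 3R and 59 on X, and 0 on chromosome 4. That count allows a share of up to 1.14%, taken as 3 of 264 members. Few would be expected there by length, as chromosome 4 had 287788 of the 30194337 bases of deep intronic sequence. Chromosome 4 held no conservative peak of any kind. Per Mb of deep intronic sequence the density was highest on X (11.4) and 2L (10.4) and lowest on 2R (6.58). Conservative peaks of any kind were also denser on X (362 in 23542271 bp) than on 2R (280 in 25286936 bp). As a share of the conservative peaks of an arm, members ran from 12.1% on 2R to 16.3% on X.

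Deep intronic peaks had a lower median signal than promoter peaks, with overlapping quartiles. They were close in strength to other intronic and intergenic peaks away from promoters, and had a higher median than exonic peaks there. The median pooled signal, the authors' own strength value whose scaling was not stated, was 80.1 for the members, against 80.8 for intronic peaks 1 to 5 kb from a TSS, 77.8 for intergenic peaks beyond 5 kb, 97.6 for peaks within 1 kb of a TSS and 86.6 for all conservative peaks. The 45 exonic peaks more than 1 kb from a TSS had a median of 59.0. The quartiles were 64.1 and 103 for the members, against 70.2 and 157 for the peaks within 1 kb of a TSS. The median member stood at the 43.8th percentile of its list. In the replicates' own lists, deep intronic peaks stood at a median percentile of 40.2 in replicate 1 and 35.4 in replicate 2. Most members were of moderate strength: 174 had a pooled signal between 50 and 100, 64 between 100 and 200, 17 under 50 and 9 above 200. Of the 25 strongest conservative peaks, 1 was deep intronic, and of the strongest 100, 3 were.

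The share of members called in each replicate on its own was below that of all conservative peaks, and this held for other peaks away from promoters as well. Replicate 1's thresholded list held 142 of the 264 members (53.8%), against 61.0% of all conservative peaks, and replicate 2's held 127 (48.1%), against 53.6%. Both lists held 94 members (35.6%, Wilson 30.1 to 41.6), against 43.6% of all peaks. The share in both lists was 38.3% for intronic peaks 1 to 5 kb from a TSS, 31.7% for intergenic peaks beyond 5 kb and 53.7% for peaks within 1 kb of a TSS. Neither list held 89 members (33.7%), against 29.0% of all peaks, so those members rested on the pair of replicates. At an IDR of 0.001 or less there were 95 members (36.0%), against 44.3% of all peaks.

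Signals of the members in the replicates were of like size. The median was 44.3 in replicate 1 and 38.1 in replicate 2 over the members with a value there, 261 and 262 of them. The median log2 ratio, replicate 1 over replicate 2, was 0.20 (SD 0.50 over 259 members), against 0.27 (SD 0.48) over all conservative peaks. Replicate 1 was higher for 174 of those 259 members, and for 1302 of the 1779 conservative peaks with both values. The replicates differed by more than 2-fold for 20 members, of which 16 were higher in replicate 1. The largest ratio was at a peak in simj, which encodes a subunit of the NuRD chromatin remodelling complex, with signals of 111 in replicate 1 and 33.2 in replicate 2. Mnt, scrib, bs and Bx followed with log2 ratios of 1.52, 1.51, 1.49 and 1.47. The lowest ratios, −1.11, −1.10, −1.06, −1.01 and −0.84, were at peaks in trol, vn, kirre, CG8312 and mim. The trol value was that of a weak peak overlapping a stronger one.

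**Figure D1:**
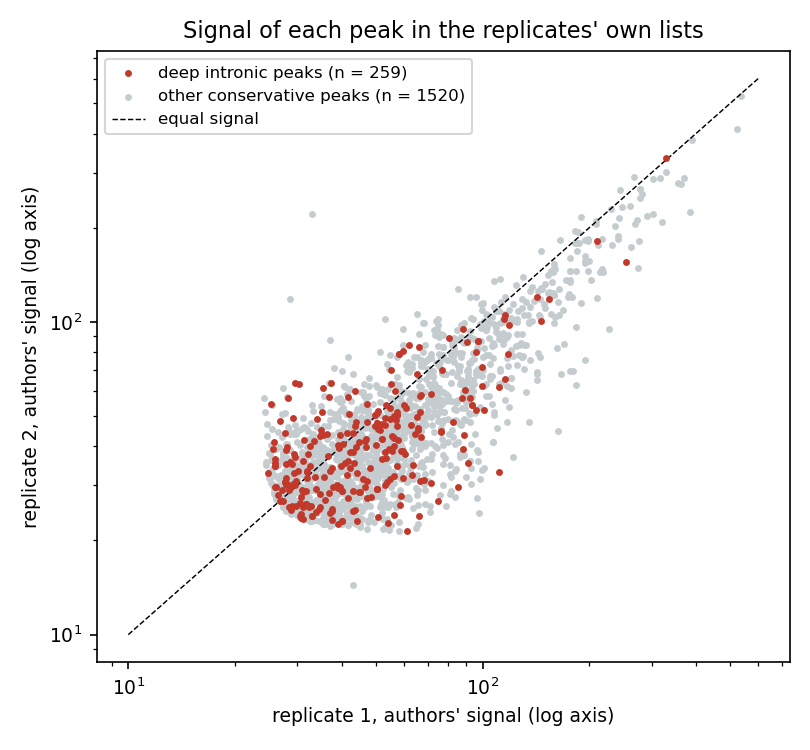
Signal of each conservative peak in the replicates' own ranked lists (authors' signal, log axes), with replicate 1 across and replicate 2 upward. Red points are the 259 deep intronic peaks with both values, grey points are other peaks and the dashed line marks equal signal; 174 of the red points lie on the side of higher replicate 1.

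The strongest deep intronic peak stood apart from the others. It lay in CG32486 at chr3L:3060667-3060924 with a pooled signal of 662, and with 329 in replicate 1 and 334 in replicate 2. This peak ranked 4th of all conservative peaks. The nearest protein-coding TSS, 5716 bp away, belonged to CG16753, and a TSS of some annotated gene, noncoding genes included, lay 543 bp away. The next was in Raf, which encodes the kinase just below Ras in the MAP kinase cascade, with 411 pooled, 254 in replicate 1 and 156 in replicate 2. osa, which encodes a subunit of the Brahma chromatin remodelling complex, had 391 pooled, 211 in replicate 1 and 181 in replicate 2. After these the values dropped to 262 in shep, an RNA-binding protein gene. All of the 25 strongest members except that in CG32085 were called in both replicates' own lists, and CG32085 was called in replicate 1 only.

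The hosts of the next strongest members were of several kinds. Psc, a core component of Polycomb repressive complex PRC1, had a pooled signal of 256, with 154 in replicate 1 and 118 in replicate 2. JIL-1, a histone H3 kinase, had 253, with 146 in replicate 1 and 101 in replicate 2. dpp, the BMP ligand, had 220, with 116 in replicate 1 and 105 in replicate 2. These 3 genes each held 1 of the 7 strongest peaks. Myc, the growth-promoting transcription factor, had 217 pooled, with 119 in replicate 1 and 98.1 in replicate 2. A summit with 193 lay in the overlapping genes Mi-2, which encodes a NuRD remodelling ATPase, and Su(Tpl), an ELL elongation factor. The remaining hosts of the 25 strongest peaks were shn, wdb, simj (with 2 of them), Eip75B, cv-c, dar1, sbb, Gug, CG32085, kibra, heca, Hr4 (with 3) and osa (with 2), all between 148 and 217 except the osa peak of 391. Their known products include a PP2A regulatory subunit (wdb), a KLF-type factor (dar1), the Atrophin corepressor (Gug) and an upstream regulator of the Hippo pathway (kibra).

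Deep intronic peaks often shared a host gene. There were 55 hosts with 2 or more members, and 139 members (52.7%) lay in them. The remaining 127 hosts held a single member. Members next to each other in the same host were a median of 4.33 kb apart over 87 neighbouring pairs, and 22 pairs were within 1 kb. Closely spaced peaks were not always separate: 15 members overlapped a stronger conservative peak, had pooled signals of 3.13 to 34.2 (median 6.84), and 14 of them carried the same replicate values as the stronger peak. In shn, for example, peaks of 191 and 4.41 both had 97.1 in replicate 1 and 87.1 in replicate 2. Without those 15, 249 members remained in 180 hosts, of which 48 had several members and 20 had 3 or more, against 55 and 23 with them.

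Snoo had the most members. This gene encodes a corepressor of the Ski family, and its 8 peaks were spread over 67207 bp of its 93010 bp, with pooled signals between 55.5 and 133. Of the 8, 3 were called in both replicates and 2 in neither. kirre, an immunoglobulin adhesion gene of muscle founder cells and the longest host at 394149 bp, had 6 members within 33662 bp, all between 50.8 and 104. Hr4, a nuclear receptor gene of the ecdysone cascade, had 5 with pooled signals of 217, 156, 151, 102 and 57.5, and the first 4 of these were called in both replicates. Among hosts with more than 3 members Hr4 thus had the strongest peaks.

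Hosts with 4 members were Eip74EF, SKIP, heca and Hr3. The Hr3 peaks also lie inside the overlapping genes CG12912 and CG46321, so the annotation gives these 4 peaks 3 hosts. Eip74EF, an ecdysone-induced ETS factor, had pooled signals of 108, 90.7, 80.9 and 62.9. Its strongest peak had 68.4 in replicate 1 and 31.3 in replicate 2. SKIP had 103, 65.6, 45.0 and 7.10, and heca had 148, 82.1, 80.9 and 27.5, where the weakest of each gene overlapped a stronger peak. A further 14 hosts had 3 members: Bx, CG1677, CG34347, Eip75B, Hipk, Mnt, Raf, Smr, bves, dnr1, ftz-f1, osa, sbb and simj. In CG34347, bves and dnr1 the weakest member, with 3.24, 12.2 and 15.8 in that order, overlapped a stronger peak. In Bx, which encodes a LIM-only protein, all 3 were higher in replicate 1, with 66.2, 58.5 and 50.4 against 23.9, 26.0 and 29.2 in replicate 2. In CG1677 the 3 peaks lay 6039 to 8280 bp from the nearest TSS, which belonged to brk for 2 of them. brk encodes Brinker, the repressor of Dpp target genes, and was named after its values were seen.

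**Figure D2:**
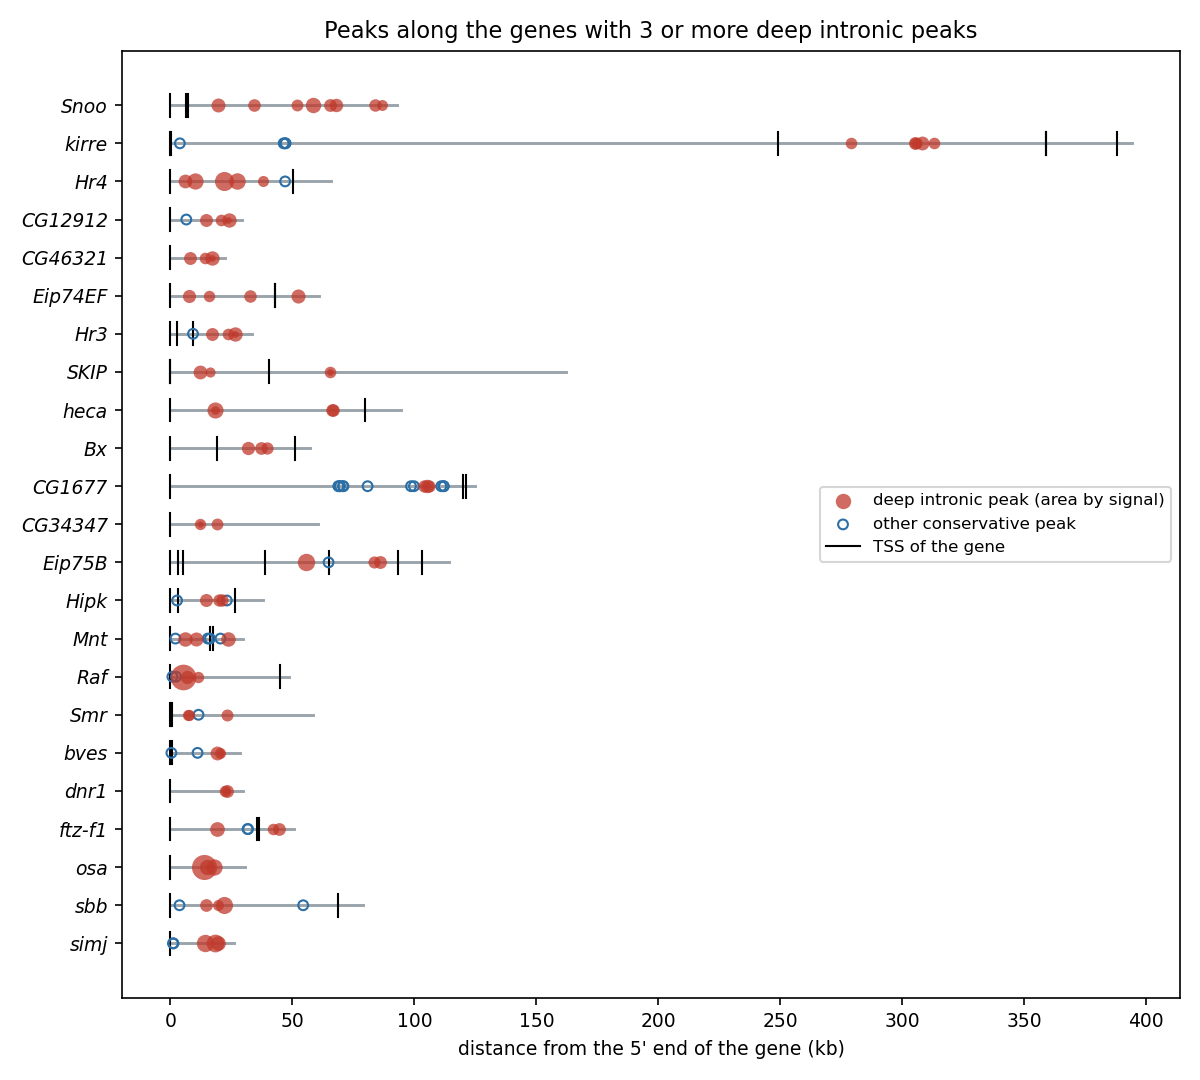
Positions of peaks along the 23 genes with 3 or more deep intronic peaks, as distance from the 5′ end of each gene (kb). Filled circles are deep intronic peaks with area by pooled signal, open circles other conservative peaks of the gene and bars its TSSs; the 6 circles of kirre sit together in the far part of the gene, and those of Snoo run along its length.

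Gene lists were set against all genes with deep intronic sequence and against their own share of it, and 11 of the 14 lists reported had a higher share of hosts than all such genes. The share of hosts does not allow for gene length, and it was 3.98% under 20 kb and 26.5% over 100 kb. Among the 11, axon guidance and RNA-binding genes held fewer members than by bases, with 13 against 16.5 and 4 against 10.7. Genes of the ecdysone response held more deep intronic peaks than their share of deep intronic bases would give. Of the 18 genes on this list with any deep intronic sequence, 10 were hosts (55.6%, Wilson 33.7 to 75.4), against 9.83% of all 1852 genes with such sequence. They held 26 members, against 4.62 if members were shared out by deep intronic bases. The nuclear receptors among the hosts were Hr4 (5), Hr3 (4), Eip75B (3), ftz-f1 (3), EcR (2) and Hr38 (1), with the number of members of each. The others were Eip74EF (4), the ABC transporter gene E23 (2), the EcR coactivator gene tai (1) and the transcription factor gene Eip93F (1). In the replicates' own lists the list held 18 peaks in 7 hosts in replicate 1, against 2.92 by bases, and 10 peaks in 6 hosts in replicate 2, against 2.36.

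Strength within the ecdysone list ranged widely. The strongest Eip75B peak had 176 pooled, 90.3 in replicate 1 and 86.3 in replicate 2, whereas the peaks in EcR, the ecdysone receptor gene, had 67.0 and 56.8 and were called in neither replicate. The tai peak had 121 pooled, with 90.8 in replicate 1 and 35.5 in replicate 2. ftz-f1 had 120, 84.7 and 64.2, and its strongest peak had 82.6 in replicate 1 and 47.8 in replicate 2. The single peaks of Eip93F (77.1) and Hr38 (65.8) were below the median of all members. Of the peaks on this list called in both replicates, 4 were in Hr4, 2 in Hr3, 1 in Eip75B and 1 in E23. The weaker of the Hr3 pair, with a pooled signal of 6.84, overlapped a stronger peak.

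Chromatin regulators were the other list far above the background, as a description, since the lists were chosen with earlier results of these data known. This list counts Mnt and leaves out the hosts JIL-1 and simj. Hosts were 6 of 14 genes with deep intronic sequence (42.9%, Wilson 21.4 to 67.4), and they held 10 members, against 0.749 by bases. The hosts were osa (3), Mnt (3), Psc (1), Mi-2 (1), trx (1) and kis (1). osa had pooled signals of 391, 152 and 131, all called in both replicates. These peaks lay 725, 171 and 217 bp from a noncoding TSS, in that order, and that of 391 was in a noncoding exon. Mnt, a bHLH protein that opposes Myc, had 116, 115 and 107. trx, a histone H3 lysine 4 methyltransferase, had 129, with 88.7 in replicate 1 and 43.5 in replicate 2. The kis peak (68.7), in a gene for a CHD-family remodeller, was called in neither replicate. Most of these genes have little deep intronic sequence, a median of 3.56 kb, against 29.2 kb for the ecdysone list. In the replicates' own lists these genes held 10 deep intronic peaks in 5 hosts in replicate 1 and 9 in 5 hosts in replicate 2.

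Signalling pathways with few eligible genes gave smaller counts. EGFR, Ras and MAP kinase genes held 7 members in 4 of 12 genes, against 1.87 by bases: Raf, cic, pnt and vn. Raf had 411, 93.9 and 62.4. cic, an HMG-box repressor downstream of the pathway, had 117 and 67.0, the ETS factor pnt had 112, and the ligand gene vn had 87.0. BMP and activin genes held 6 members in 4 of 12, against 1.50 by bases: dpp (220), shn, a zinc-finger factor of Dpp signalling (191 and 4.41), the glypican dlp (76.4 and 3.13) and the inhibitory Smad gene Dad (69.5). Without the overlapping peaks the BMP count was 4. Hippo, Fat and polarity genes held 7 members in 5 of 16 (kibra, scrib, fz, ds and wts), against 2.94 by bases. The Hippo count depended on the replicate, with 8 peaks in 5 hosts in replicate 1's own list (1.86 by bases) and 2 peaks in 2 hosts in replicate 2's (1.50 by bases). EGFR genes had 5 peaks in 3 hosts in replicate 1 and 4 in 4 hosts in replicate 2, and BMP genes had 4 in 4 hosts and 3 in 3 hosts.

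The other signalling lists could not be told from the background by their shares of hosts at these counts. JNK and JAK-STAT had 3 members in puc and Socs36E (2 of 10 genes), against 0.847 by bases. In the replicates' own lists these genes held 2 peaks in replicate 1 and 0 in replicate 2. Notch had 2 in N and kuz (2 of 8), against 1.50 by bases, and Wnt and hedgehog had 3 in rdx and wg (2 of 16), against 2.09. Insulin and TOR had 0 members in 5 genes, against 0.742 by bases. With so few genes, the Wilson intervals of these shares all included the background of 9.83%.

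Ion channel and synapse genes held few members. They had 1 member in 36 genes (2.78%, Wilson 0.492 to 14.2), against 9.10 members by bases. The interval included the background of 9.83%, so this share of hosts could not be told from it. The 1 peak, in dnc, the cAMP phosphodiesterase gene, had a pooled signal of 53.4 and was called in neither replicate. In the replicates' own lists and the optimal list this list had 0 members. Axon guidance and cell adhesion genes had 13 members in 8 of 51 genes (15.7%, Wilson 8.17 to 28.0), against 16.5 by bases. Among their hosts were Ptp10D, a receptor tyrosine phosphatase (141), kirre and Ten-a (92.4). RNA-binding protein genes had 4 members in 4 of 20 genes (Wilson 8.07 to 41.6%), against 10.7 by bases: shep (262), how (74.5), mub (58.3) and msi (54.8). The intervals of the axon guidance and RNA-binding lists also included the background of 9.83%, so neither share of hosts could be told from it. In each replicate's own list, 1 of the 20 RNA-binding protein genes was a host. That was a lower share than the 6.64% (replicate 1) and 6.10% (replicate 2) of all eligible genes. The axon guidance list, with 5 and 4 hosts of 51, had higher shares than these. The 72 transcription factor genes with developmental roles held 16 members in 13 hosts, against 12.1, and muscle genes held 1 in 12 genes, in Zasp52 (79.3). The lists were chosen with earlier results of these data known, so their counts are descriptions.

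**Figure D3:**
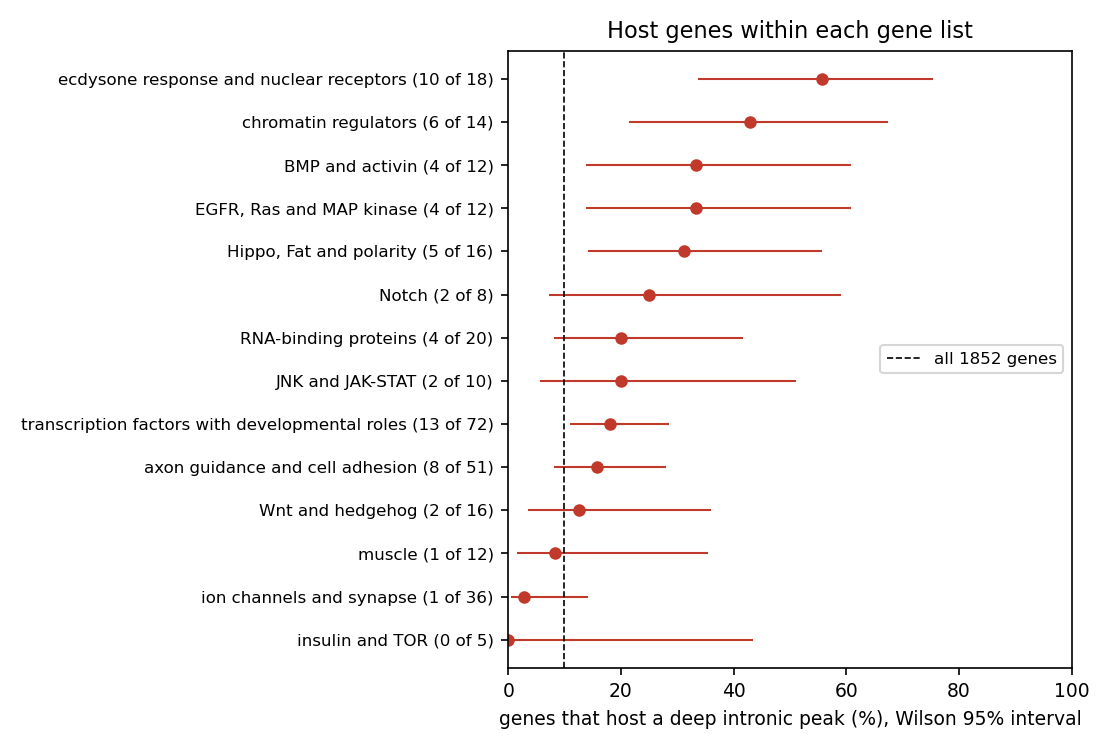
Share of the genes with deep intronic sequence in each of 14 gene lists that host a deep intronic peak (%), with Wilson 95% intervals and the number of hosts and genes in brackets. The dashed line is the share of 9.83% over all 1852 genes with deep intronic sequence; the whole interval lies above it for the ecdysone, chromatin, BMP, EGFR, Hippo and transcription factor lists.

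Host genes were long, which the rule in part requires. Their median length was 40.4 kb (9.11 to 394), against 21.4 kb for all 1852 genes with deep intronic sequence and 2.17 kb for all protein-coding genes. Hosts with several members had a median of 51.2 kb, against 35.0 kb for those with 1. The longest were kirre (394149 bp), Ten-a (291517 bp), dnc (167328 bp), dpr6 (164710 bp) and SKIP (162297 bp), and the shortest were wg (9107 bp), Swip-1 (9762 bp), AdamTS-B (10077 bp), Ttd14 (10161 bp) and chm (10320 bp). Hosts were 22 of 83 genes over 100 kb (26.5%), against 35 of 879 genes under 20 kb (3.98%). Even so, 61 of the 83 genes over 100 kb had no member.

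**Figure D4:**
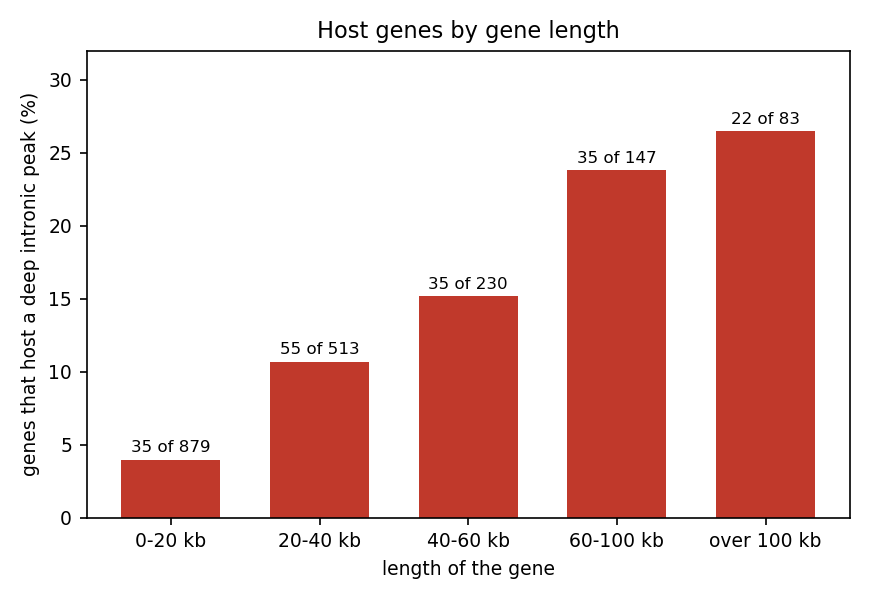
Share of genes with deep intronic sequence that host a deep intronic peak (%), by gene length. The bars are 26.5% over 100 kb and 3.98% under 20 kb, with the number of hosts and genes above each bar.

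Hosts had promoter peaks more often than eligible genes as a whole. A conservative peak lay within 1 kb of a TSS of the host in 37 of 182 hosts (20.3%), against 12.1% of the 1852 eligible genes. It did so in 18 of the 55 hosts with several members, against 19 of the 127 with 1. Most hosts, 145 of 182, had a deep intronic peak and no promoter peak. The number of TSSs a gene has was not matched between these groups, and its part in the shares was not tested.

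The nearest TSS was often not the host's. It belonged to the host for 166 members (62.9%) and to another gene for 98. The distance had a median of 9468 bp (5035 to 53537), and 34 members lay more than 20 kb away. The farthest was the peak in the homeobox gene hth, with a pooled signal of 53.1. Of the 264, 187 lay downstream of that TSS and 77 upstream. The members lay at a median of 49.4% of the host's length from its 5′ end, inside stretches free of coding-gene exons with a median length of 15.9 kb. Of the members, 56 were in the first intron of every host transcript with an intron there, 135 were in a later intron of every such transcript, and 73 were in the first of some and a later one of others. The same shares over deep intronic sequence as a whole are not given here, so these counts describe positions only.

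Some members lay near noncoding genes, whose TSSs the rule did not use. Counting every annotated gene, 62 members lay within 5 kb of a TSS, 25 within 1 kb and 3 in a noncoding exon. They included strong ones: the peak of 391 in osa was 725 bp from such a TSS and lay in a noncoding exon. The osa peaks of 152 and 131 were 171 and 217 bp away, and that of 161 in CG32085 was 532 bp away. No background share over deep intronic sequence is given for these counts, and a link with noncoding TSSs was not tested.

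The rule's threshold of 5 kb passed between peaks at nearly equal distances. The 5 members nearest to it, between 5035 and 5059 bp, were in shep (262), Lrch (105), dnt (95.8), Tis11 (123) and Ac13E (84.3). The 5 intronic peaks just short of it, between 4964 and 4983 bp, were in p130CAS (56.3), Swip-1 (59.4), CG3764 (65.0), Pde11 (74.1) and Pak3 (81.8). All 5 members had higher pooled signals than these 5 peaks, which is a description with no test.

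A member lay in CG10348 itself, the gene of the tagged protein. It was at chr2L:18724851-18725186, in the first intron and 6400 bp from the TSS of the gene, with a pooled signal of 78.0 and 36.3 in replicate 1 and 43.7 in replicate 2. It was called in both replicates, and its strength was just below the median of all members. The part played by the inserted transgene in this value was not tested.

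Summits of the members lay in dips of GC content. The 100 bp around a summit had a median GC content of 33.0%, against 45.0% in the windows centred 300 bp to each side, and a difference of −13.0 percentage points (quartiles −19.0 and −4.50). The summit was lower than its flanks in 216 members (81.8%), against 78.8% of all conservative peaks, whose median difference was −11.5. Regions in deep introns that did not pass IDR went the other way: their summits had 45.0% GC and their flanks 41.5%, and 36.9% were below the flanks. Deep intronic sequence as a whole was 40.2% GC. Thus the dip was shared with promoter peaks (−12.5) and was not seen in the ranked regions of the same compartment that did not pass.

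**Figure D5:**
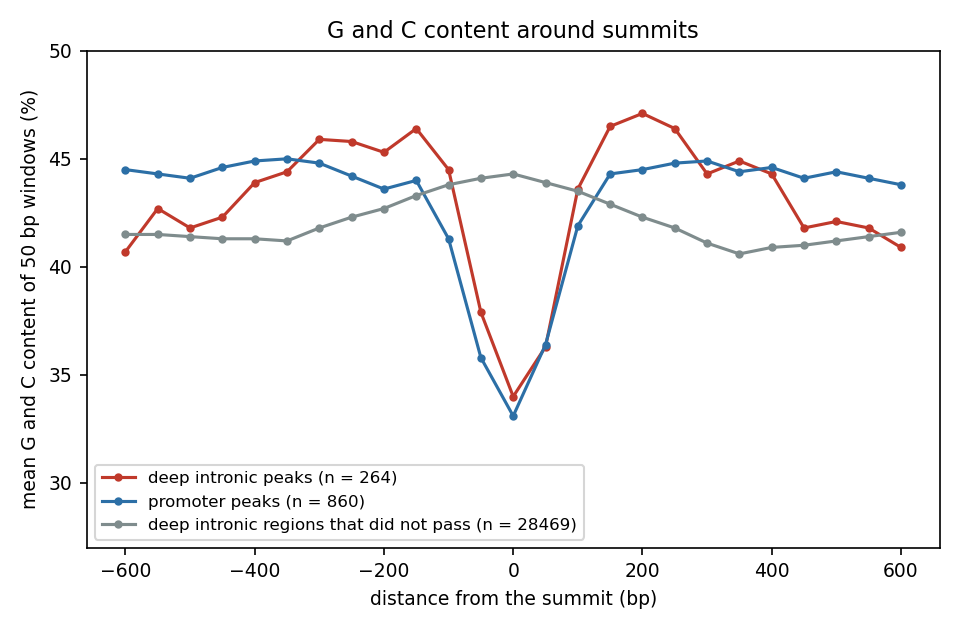
Mean GC content (%) of 50 bp windows by distance from the summit (bp). The deep intronic peaks (red, 264) fall to 34.0% at the summit, promoter peaks (blue, 860) fall in the same way, and deep intronic regions that did not pass IDR (grey, 28469) rise there.

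AT-rich words were more frequent at the summits than at their flanks, and the shares were like those of all peaks. Words were sought on both strands in the same 100 bp windows. TTAAAA was in 31.4% of member summits (Wilson 26.1 to 37.3), 11.2% of member flanks, 31.9% of all peaks and 12.8% of deep intronic regions that did not pass. AAATAT was in 30.3% (25.1 to 36.1), 10.6%, 30.1% and 14.1% in the same order, and the windows of dpp, kirre and SKIP printed above hold both words. The GATA-type words TGATAA (7.95% at summits, 3.03% at flanks) and AGATAA (8.33%, 5.68%) and the homeodomain-type word TAATTA (8.33%, 4.92%) were rarer. 5 words had lower shares at summits than at flanks: GAGAG with 6.82% and 14.2%, CACACA with 6.06% and 13.6%, GCCAT with 13.3% and 21.8%, CAGCTG with 3.41% and 5.11%, and CAGGTG with 2.27% and 3.03%. CGATA (9.85%, 7.01%) and TTTATG (12.1%, 11.2%) had higher shares at summits. For 5 of the 12 words (AGATAA, both words starting with CAG, and the pair named last) the Wilson interval of the summit share included the flank share. A word found in a window is a description and not a binding site, and the shares of AT-rich words move with GC content, whose part in them was not tested.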

How the data were processed

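Peaks of CG10348-eGFP in 2 biological replicates of whole pupae were taken as the authors deposited them. Per the deposited text, lists were derived from the replicates' alignments and a control, with aligner and peak caller not given in the sources used here. The labels name dm6 as the assembly. The deposited signal is the authors' peak strength, with a scaling not stated, and was used to describe and rank peaks within a list. The deposited score is the authors' scaled IDR, and thresholded lists began at a score of 830, an IDR of 0.01. The deposited −log10 values give the IDR in the ranked lists. Read counts were not used here and depth was unknown, and all intervals cover counting error only.

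Genes came from Ensembl release 115 and sequence from the RefSeq genome of assembly release 6. Positions are counted from 1. A replicate value was that of the overlapping region with the nearest summit in the replicate's own ranked list, and a peak was called in a replicate if it overlapped its thresholded list by 1 bp. Genes counted as eligible had at least 1 base of deep intronic sequence. Members by bases is the number of members times a list's share of that sequence. Of 561 list entries, 11 had no match in the annotation. Scripts ran in Python 3.11.15 with numpy 2.4.6, scipy 1.17.1 and matplotlib 3.10.9, and were tested on simulated data.

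Named genes were hosts of the 25 strongest members, hosts with 3 or more members, the 5 longest and 5 shortest hosts, CG10348, the 5 members just inside the limit, up to 6 hosts of each list with the strongest members, and the 5 highest and 5 lowest replicate ratios; other names were chosen after their values were seen. Of the 15 lists, 1 is not reported here. The members, the lists and the 12 words were chosen with earlier results of these data known. Alternatives covered other lists, each replicate alone, other distances, TSSs, exons, summit positions, flanks and thresholds.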

Additional observations from a re-analysis of the deposited data

How the results depend on the processing

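Of 118 alternative values of the main results 32 moved: a count by more than 1.5 times, or a share or median to outside its 95% interval. The log2 replicate ratio and the GC difference, which have a sign, kept it. Leaving out either replicate gave 135 to 167 deep intronic peaks, 113 to 123 hosts, 17 to 27 hosts with several peaks and a median signal percentile of 35.4 to 40.2. A limit of 10 kb gave 120 peaks (6.67% of all), 82 hosts, 26 with several peaks and a median host length of 59624 bp, and a limit of 2 kb gave 488 peaks (27.1%), 334 hosts, 98 with several and 31290 bp. With TSSs of all genes the share was 11.2%. Peaks at or above the median signal gave 110 members (12.2%), 95 hosts, 14 with several, a percentile of 31.1, 71.8% called in both replicates and a log2 replicate ratio of 0.300. An IDR of 0.001 gave 95 members (11.9%), 80 hosts, 16 with several, a percentile of 31.9 and 85.3% called in both. The optimal list gave a log2 replicate ratio of 0.304, and flanks at 500 bp gave a GC difference of −8.50. Those limits and thresholds keep fewer or more peaks by construction; otherwise the cause was not tested. The 3 alternatives chosen after seeing the data, which left out overlapping peaks, peaks resting on the same replicate regions, or the 100 kb around CG10348, moved none of the main results. No paired analysis was possible because the 2 replicates formed 1 group. Unknown depth limits what the absence of a peak can show.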

Other observations

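The longest stretch of bases shared by any pair of the 12 printed windows, in either orientation, was TACAAGTACTTG (12 bases). It lies in the windows of Hr4 and Eip74EF, both ecdysone-response genes on different chromosomes (X and 3L). It was found in 2 of the 264 members, the same number among all 1799 conservative peaks, and in 0 of 28469 deep intronic regions that did not pass IDR. This word was chosen after the windows were seen and was found by comparing them, so the count in the members is no test. A given word of 12 bases is rare in any sequence, so its absence from the regions that did not pass is no contrast either.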
